A study of Mus musculus with 4 samples.

Results

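The 44 interferon response genes described here are genes that cells switch on when interferon reaches them. They were chosen by name from knowledge of the pathway, with earlier results of these data known. All 44 were found among the 27998 genes counted, each under 1 identifier. They were followed in lymphoid-primed multipotent progenitors (LMPPs), blood progenitors that can still form lymphocytes as well as myeloid cells, taken by cell sorting from bone marrow of C57BL/6 mice and measured by droplet single-cell RNA sequencing. There were 4 libraries, 1 per group. The control library came from mice that had RBPJ, the DNA-binding partner of activated Notch receptors, throughout. The RBPJ uninduced library came from mice without RBPJ, and the RBPJ 3 days induced and RBPJ 6 days induced libraries came from mice that first lacked RBPJ and then had it switched on by doxycycline for 3 or 6 days. Doxycycline was injected at 2 mg/ml and then given in the drinking water at 1 mg/ml. All 4 labels carry that treatment text, so whether control and uninduced mice received the drug is not clear from them, and neither the number of mice per library nor the promoter behind the inducible allele was given in the labels. The question asked of the members was whether a difference between libraries lay in all cells or in a few strongly responding cells, defined as cells with 5 or more UMIs (unique molecular identifiers, which tag single captured transcripts) over Ifit1, Rsad2 and Ifit3.

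Type I interferons bind the receptor chains IFNAR1 and IFNAR2 and, through the kinases JAK1 and TYK2, activate a transcription factor complex that holds STAT2 and IRF9. That complex binds the interferon-stimulated response element (ISRE) in the promoters of antiviral genes, while interferon gamma acts largely through a GAS element. Stem and progenitor cells of the bone marrow are known to hold part of this programme on without infection, and interferon can drive them into division.

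Promoters were read from RefSeq for build GRCm38.p6, as 300 bases per start site, of which 250 lie before the start. Of the 44 members 35 had an entry, and Usp18, Oas2, Mx1, Ifi27l2a, Dhx58, Iigp1, Parp14, Zbp1 and Rtp4 did not. The core letters of an ISRE, GAAA and GAAA with any 2 bases between them, stood on either strand in 19 of those 35 members (54.3%), against 3.99% of the 27025 genes in the table. The GAS letters TTCNNNGAA, which can share bases with the ISRE letters, stood in 11 of the 35 (31.4%) against 9.55% of all genes. The letters TGGGAA, bound by RBPJ, stood in 14 of the 35, beside 28.3% of all genes. The windows below show the ISRE letters, in capitals, with 20 bases on each side, for the 3 genes of the cell rule and, from the ISG15 system, the oligoadenylate synthetases and the membrane proteins, for Isg15, Oas3 and Bst2. They end before the gene's start and are written 5′ to 3′ on the gene's strand. Where matches lie 6 bases apart they run together.
Ifit1, chr19:34640765-34640833, plus strand: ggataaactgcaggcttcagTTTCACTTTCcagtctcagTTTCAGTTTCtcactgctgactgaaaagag
Ifit3, chr19:34583353-34583436, plus strand: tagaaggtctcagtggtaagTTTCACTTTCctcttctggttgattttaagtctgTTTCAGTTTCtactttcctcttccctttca
Rsad2, chr12:26456543-26456592, minus strand: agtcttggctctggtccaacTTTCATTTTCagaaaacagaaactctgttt
Isg15, chr4:156200855-156200916, minus strand: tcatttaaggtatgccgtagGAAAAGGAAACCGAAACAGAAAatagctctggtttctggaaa
Oas3, chr5:120777705-120777754, minus strand: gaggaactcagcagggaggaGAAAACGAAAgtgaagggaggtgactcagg
Bst2, chr8:71537567-71537622, minus strand: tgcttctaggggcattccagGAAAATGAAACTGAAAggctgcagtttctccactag

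Ifit1 and Ifit3, neighbours on chromosome 19, each had 2 matches, beginning 104 and 85 bases before the start of Ifit1 and 156 and 122 bases before that of Ifit3. Isg15 had 3 overlapping matches between 78 and 66 bases before its start, and Bst2 had 2 at 130 and 124 bases. Rsad2 had 1 match at 120 bases and Oas3 had 1 at 75 bases. A match is a description of the letters and not a measured binding site.

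The cells were those of the authors' deposited expression tables, 2693 control, 2769 uninduced, 1292 3-day and 2129 6-day cells. They held 10647894 to 23504158 UMIs per library, with medians of 6774 to 7920 UMIs per cell, and any pair of libraries shared 2 to 17 cell barcodes. Rbpj itself stood at 17.8 CPM (counts of UMIs scaled to a common library total) in control, 11.2 in uninduced, 508 at 3 days and 485 at 6 days, and whether the counted transcript end lies in the deleted part is not given. All 8 LMPP markers were detected in every library and summed to 1783 to 1992 CPM, with Flt3 at 191 to 223 CPM and Cd34 at 411 to 484 CPM. Clusters led by neutrophil, monocyte, B cell and erythroid genes held 159 of 8883 cells, or 0.594%, 1.91%, 2.32% and 2.82% of the control, uninduced, 3-day and 6-day cells. Summed neutrophil markers, 10 genes, stood at 959, 3442, 4032 and 2864 CPM in that order, and at 26.8 to 74.99 CPM without those clusters. Since each group is 1 library, no difference between groups can be tested. The 95% intervals given below cover counting error only.

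All 44 members were detected in every library, with medians over the members of 15.9 CPM in control, 17.9 in uninduced, 17.1 at 3 days and 18 at 6 days. Only 34 reached 10 CPM in any library. The other 10 (Ifit2, Ifit3, Oas1a, Oas2, Oas3, Oasl1, Mx1, Stat2, Ifih1 and Zbp1) stayed below 10 CPM in all 4 and entered no count of differences. Of all 44, with those 10 included, 17 were highest in uninduced and 17 in 3-day cells, while 19 were lowest in control and 17 in 6-day cells. These places hold differences of any size and were not counted over all genes, so they are a description of the members only.

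**Figure D1:**
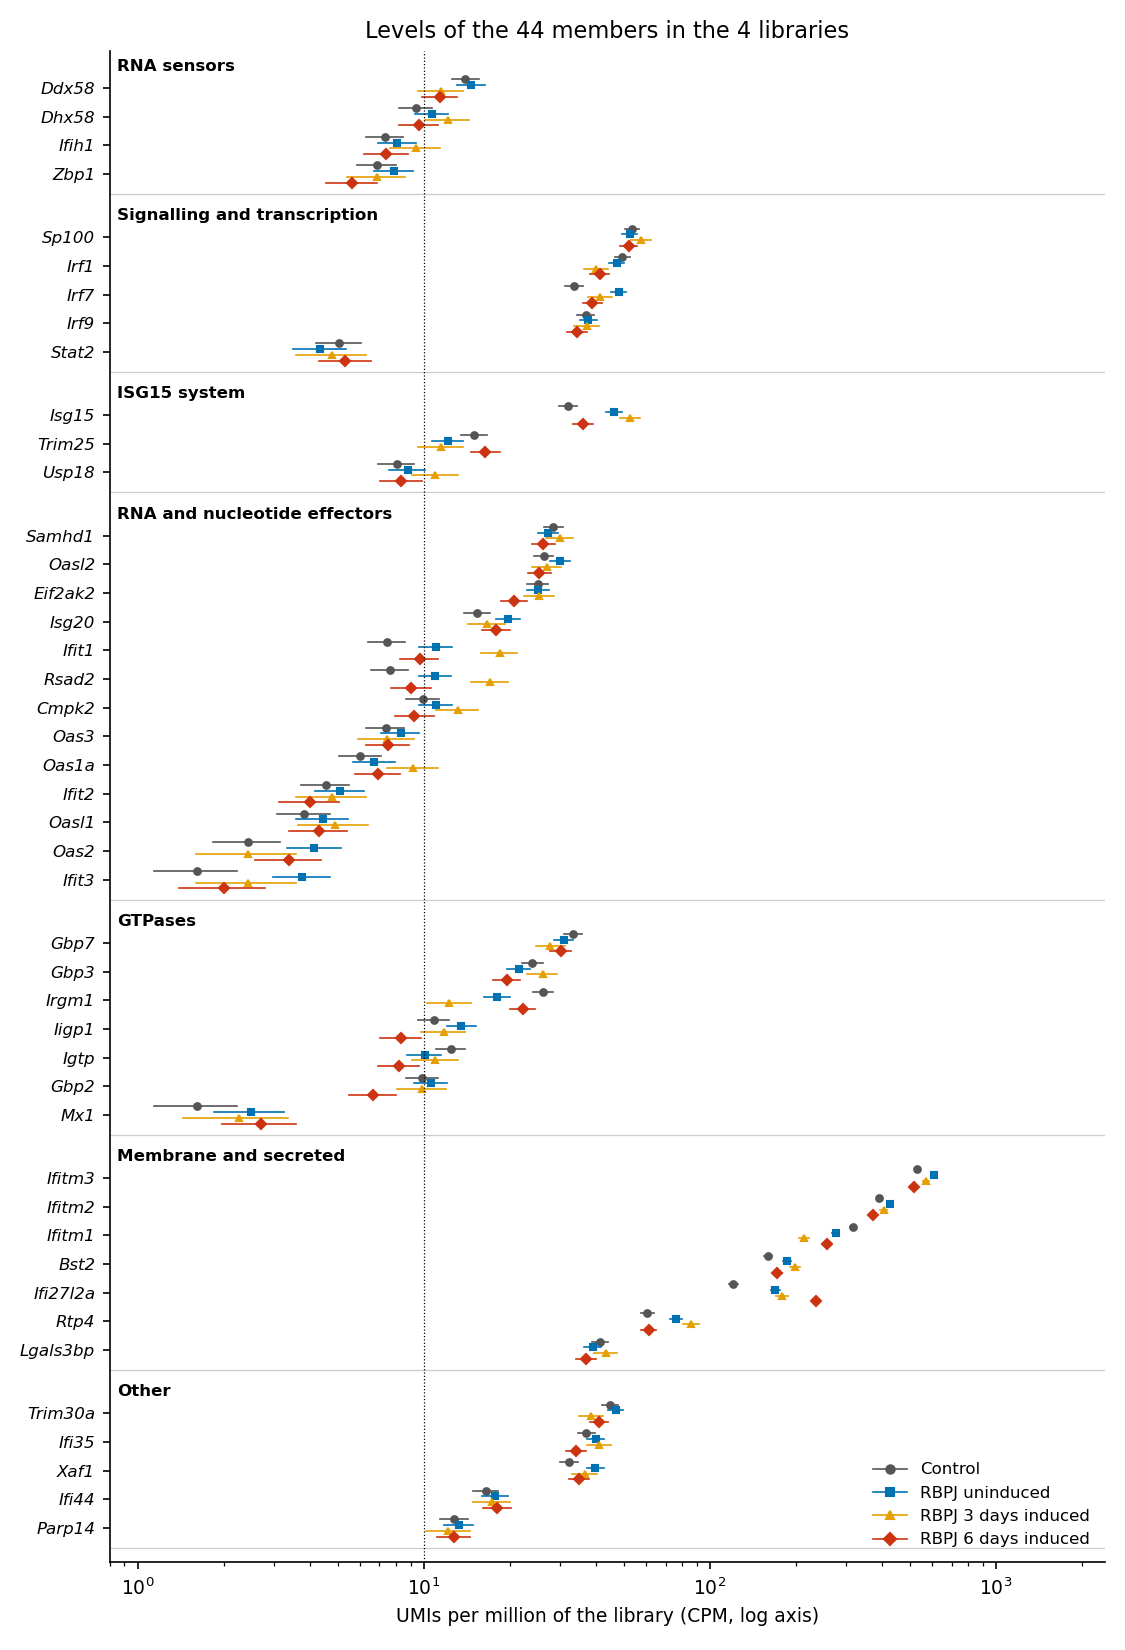
Level of each of the 44 members (rows, grouped by role) in the 4 libraries, in CPM on a log axis, with exact Poisson 95% intervals as horizontal lines and a dotted line at 10 CPM. Ifi27l2a runs from 121 CPM in control to 234 CPM in 6-day cells, Irgm1 is lowest in 3-day cells at 12.3 CPM, and Ifit1 and Rsad2 stand highest in 3-day cells at 18.4 and 17.0 CPM.

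Summed over the 44 genes, the level was 2299 CPM in control (2280 to 2319), 2512 in uninduced (2490 to 2533), 2415 at 3 days (2385 to 2445) and 2301 at 6 days (2278 to 2323). Uninduced cells thus stood 1.09-fold above control (1.08 to 1.11), and 6-day cells stood at 0.916 of uninduced (0.904 to 0.928) and at 1.00 of control (0.988 to 1.01). The 3-day cells lay between, at 0.961 of uninduced (0.947 to 0.976) and 1.05-fold of control (1.03 to 1.07). All 6 comparisons reuse the same 4 libraries and are not independent. In barcodes with 10 to 100 UMIs, which mostly hold RNA from outside cells, the summed members stood at 2826, 2696, 2701 and 2830 CPM in the same order, and that order differs from the order in cells.

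In uninduced against control cells no member of 33 at 10 CPM or more differed by 1.5-fold, where 0.691% of all 7235 genes were 1.5-fold higher and 0.76% were 1.5-fold lower. At 1.2-fold 9 members were higher (2.92% of all genes) and 3 were lower (10.1% of all genes), counted on the log2(CPM + 1) scale that is used for every call and log2 ratio here. The median log2 ratio of the 33 was 0.11 against -0.07 over all genes. With TMM scaling, which moves the all-gene median to -0.003, 11 members were higher and 1 was lower, beside 346 and 368 of all genes.

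In 3-day against uninduced cells 2 of 34 members were 1.5-fold higher, Ifit1 and Rsad2 (0.466% of all genes), and none was 1.5-fold lower (0.847%). At 1.2-fold 4 were higher (5.97%) and 4 were lower (8.12%), and the median of -0.03 lay close to the -0.007 of all genes. In 6-day against uninduced cells none of 33 was 1.5-fold higher (0.733%) and 2 were 1.5-fold lower, Iigp1 and Gbp2 (0.31%). There 3 were 1.2-fold higher (3.83%) and 8 were lower (4.47%), with a median of -0.18 against -0.03 over all genes. These 2 comparisons share the uninduced library.

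Against control, 3-day cells had 3 of 33 members 1.5-fold higher (0.91%), namely Ifit1, Rsad2 and Isg15, and 1 lower (1.39%), Irgm1. At 1.2-fold 10 were higher (3.56%) and 5 were lower (18.4%). With TMM scaling the split was 10 higher and 3 lower, beside 535 and 747 of all genes. In 6-day against control cells Ifi27l2a alone of 28 was 1.5-fold higher (0.608%) and none was lower (0.152%), and at 1.2-fold 1 was higher (1.91%) and 5 were lower (10.4%). TMM scaling gave 3 higher and 2 lower there, beside 259 and 231 of all genes. Between 6 and 3 days, 1 of 33 was 1.5-fold higher (1.4%), Irgm1, 2 were lower (0.674%), Ifit1 and Rsad2, and at 1.2-fold 4 were higher (9.58%) and 12 lower (9.38%).

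The 4 sensors of foreign nucleic acid summed to 37.6, 41.3, 39.8 and 34.0 CPM in control, uninduced, 3-day and 6-day cells, the order in which every later set of 4 values is given. Ddx58, which encodes the cytoplasmic RNA sensor RIG-I, stood at 14 CPM in control, 14.7 in uninduced, 11.5 at 3 days and 11.4 at 6 days. Both induced libraries lay below both others, though the intervals overlap, at 0.782 of uninduced (0.629 to 0.968) at 3 days and 0.778 (0.648 to 0.933) at 6 days. Dhx58, the related regulator LGP2, stood at 9.40, 10.7, 12.1 and 9.62 CPM, and the intervals overlapped. Its gene overlaps the antisense gene Dhx58os. Ifih1, encoding the long-RNA sensor MDA5, ranged from 7.32 to 9.39 CPM and Zbp1, a sensor of Z-form nucleic acid, from 5.61 to 7.88 CPM.

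Among the signalling and transcription factors Irf7, the factor that amplifies type I interferon production, differed most. It stood at 33.5 CPM in control (31.2 to 36.0), 48.0 in uninduced (45.1 to 51.1), 41.4 at 3 days (37.6 to 45.5) and 38.9 at 6 days (36.0 to 41.9). Control was lowest and uninduced highest, 1.43-fold of control (1.30 to 1.57), and all 3 other libraries lay above control. Its gene overlaps Phrf1 on chromosome 7 (141262706 to 141266481, GENCODE vM21), so that reads from the overlap are uncertain unless counted by strand. Irf1, a factor induced by interferon gamma, stood at 49.5, 47.3, 40.01 and 41.2 CPM, lower in both induced libraries. Irf9, the DNA-binding subunit of the complex with STAT2, stayed between 34.4 and 37.7 CPM, Sp100, a nuclear body protein, between 52.0 and 57.5 CPM, and Stat2, the partner of Irf9, between 4.34 and 5.33 CPM. The gene of Irf9 overlaps Rnf31.

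In the ISG15 system the modifier itself differed and its enzymes less so. Isg15, a ubiquitin-like protein attached to other proteins during the antiviral response, stood at 32.0 CPM in control (29.7 to 34.3), 46.2 in uninduced (43.3 to 49.2), 52.7 at 3 days (48.4 to 57.2) and 36.0 at 6 days (33.2 to 38.9). The uninduced and 3-day libraries lay above the other 2 without overlap of their intervals. Usp18, the protease that removes ISG15 and dampens receptor signalling, stood at 8.04, 8.78, 10.99 and 8.36 CPM. Trim25, a ubiquitin ligase that acts on RIG-I, stood at 14.98, 12.1, 11.5 and 16.4 CPM and was 1.36-fold of uninduced (1.14 to 1.61) at 6 days.

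Of the 13 effectors acting on RNA and nucleotides, Ifit1 and Rsad2 stood apart. Ifit1, which binds foreign RNA caps, stood at 7.45 CPM in control (6.38 to 8.63), 11.02 in uninduced (9.65 to 12.5), 18.4 at 3 days (15.9 to 21.2) and 9.68 at 6 days (8.28 to 11.3). Rsad2, encoding the antiviral enzyme viperin, stood at 7.62 (6.54 to 8.82), 10.98 (9.60 to 12.5), 17.0 (14.6 to 19.7) and 9.05 CPM (7.70 to 10.6). Both were highest at 3 days, 2.47-fold (2.01 to 3.05) and 2.23-fold (1.81 to 2.76) of control. Ifit3, a partner of Ifit1, was low at 1.62, 3.77, 2.44 and 2.01 CPM, and 24.0% of the 31-base words at its transcript end occur in Ifit3b, so that its counts may be split between the copies. Isg20, an RNA exonuclease, stood at 15.4, 19.8, 16.6 and 17.9 CPM, and Cmpk2, a nucleotide kinase beside Rsad2 on chromosome 12, at 9.91, 11.02, 13.2 and 9.28 CPM.

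The other 8 effectors were mostly low or close between libraries. The RNA-activated kinase gene Eif2ak2 was lowest in 6-day cells at 20.7 CPM, against 25.02 to 25.3 CPM elsewhere. Oasl2 ranged from 25.4 to 29.9 CPM and Samhd1, a nucleotide hydrolase, from 26.2 to 29.9 CPM. The oligoadenylate synthetase genes Oas1a, Oas2 and Oas3, the related Oasl1, and Ifit2 stayed between 2.43 and 9.20 CPM, with Oas2 highest in uninduced cells at 1.71 times its lowest library and Oas1a highest at 3 days at 1.53 times. The transcript end of Oas1a shares 70.0% of its 31-base words with Oas1g, and its counts are uncertain.

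The GTPases, many of which act on the membranes around intracellular pathogens, were summed highest in control, at 118 CPM against 107, 101 and 97.6 CPM. Irgm1, a regulator of the other immunity-related GTPases, stood at 26.2 CPM in control (24.1 to 28.3), 18.04 in uninduced (16.3 to 19.95), 12.3 at 3 days (10.3 to 14.6) and 22.2 at 6 days (20.02 to 24.5). The uninduced and 3-day libraries were low, with 3-day cells at 0.470 of control (0.386 to 0.569), and 6-day cells were 1.80-fold of 3-day cells (1.47 to 2.21). Igtp stood at 12.4, 10.1, 10.99 and 8.19 CPM and Iigp1 at 10.9, 13.6, 11.7 and 8.31 CPM, both lowest at 6 days, and the gene of Igtp overlaps Irgm2.

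Gbp2, a guanylate-binding protein, was also lowest at 6 days, at 6.65 CPM against 9.87 in control, 10.6 in uninduced and 9.86 in 3-day cells. Iigp1 and Gbp2 in 6-day cells stood at 0.613 (0.498 to 0.751) and 0.627 (0.497 to 0.789) of uninduced. Gbp3 ranged from 19.5 to 26.0 CPM and Gbp7 from 27.7 to 33.3 CPM, while the virus-blocking Mx1 stayed between 1.62 and 2.69 CPM.

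The membrane and secreted members held most of the summed UMIs. Ifi27l2a, an interferon-inducible gene whose product lies in cell membranes, stood at 121 CPM in control (117 to 125), 170 in uninduced (164 to 175), 179 at 3 days (171 to 187) and 234 at 6 days (227 to 241). It was 1.40-fold of control (1.33 to 1.47) in uninduced cells and 1.94-fold (1.84 to 2.03) in 6-day cells. The intervals of the uninduced and 3-day libraries overlap, and the others do not. In barcodes with 10 to 100 UMIs it stood at 138, 146, 196 and 245 CPM, and the part of free RNA in the difference was not tested. Monocyte-like cells, of which the libraries held 1, 9, 8 and 13, had 1247 CPM of it (1107 to 1399), and with the cells of those other types left out its log2 ratio was 0.47 in uninduced and 0.90 in 6-day against control cells, beside 0.48 and 0.95 with them.

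Bst2, encoding the virus-holding protein tetherin, stood at 160 CPM in control (155 to 165), 186 in uninduced (180 to 192), 198 at 3 days (190 to 207) and 172 at 6 days (166 to 178). All 3 other libraries lay above control. Rtp4, a chaperone of receptors, stood at 60.5, 76.4, 86.1 and 61.1 CPM, with control and 6-day cells nearly equal and below the others, and its gene overlaps Masp1. Ifitm1, one of the membrane proteins that block virus entry, went the other way and stood at 317 (310 to 324), 275 (268 to 282), 213 (204 to 222) and 257 CPM (249 to 264).

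Ifitm3 stood at 531, 610, 570 and 519 CPM, highest in uninduced cells, and Ifitm2 at 390, 426, 405 and 370 CPM. The transcript end of Ifitm2 shares 51.5% of its words with other copies and that of Ifitm3 28.3%. The secreted Lgals3bp stayed between 36.9 and 43.4 CPM. Of the remaining 5 members Xaf1, a regulator of cell death, stood at 32.2, 39.8, 36.5 and 34.9 CPM. Trim30a was lowest in 3-day cells at 38.5 CPM, against 41.0 to 46.9 CPM elsewhere. Ifi35 ranged from 34.0 to 41.0 CPM, Ifi44 from 16.5 to 18.1 CPM and the ADP-ribosyltransferase gene Parp14 from 12.2 to 13.3 CPM.

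Strongly responding cells were rare in every library. There were 13 in control (0.483%, 0.257 to 0.824, exact binomial), 19 in uninduced (0.686%, 0.414 to 1.07), 10 at 3 days (0.774%, 0.372 to 1.42) and 10 at 6 days (0.470%, 0.226 to 0.862), and these intervals overlap. After thinning each cell to 4700 UMIs, which leaves out 351, 676, 204 and 374 shallower cells, the shares were 0.214%, 0.526%, 0.827% and 0.228%. Just outside the rule lay 8, 4, 3 and 7 cells with exactly 4 UMIs, and just inside it 5, 6, 2 and 2 cells with exactly 5. Most cells, 88.5% to 90.8%, had no UMI of the 3 genes.

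The strongest of these cells were 3-day cells and 1 uninduced cell. The highest cell held 15 UMIs of the 3 genes in control, 61 in uninduced, 74 at 3 days and 17 at 6 days, and the medians were 7, 7, 11.5 and 9. At 10 or more UMIs there were 1, 5, 6 and 5 cells. The second 3-day cell held 66 UMIs, 47 of them of Ifit1, and the next held 21. The second uninduced cell held 14, below the highest 6-day cell. The strongly responding cells took 0.451%, 0.671%, 0.773% and 0.510% of a library's UMIs and 1.62%, 3.45%, 3.72% and 1.88% of its member UMIs. Those member UMIs include the 3 genes of the rule, so these shares and their order are partly set by the choice of cells. The same cells held 23.0%, 36.3%, 55.8% and 28.2% of the UMIs of the 3 genes, a description only, since those UMIs chose the cells.

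Most members that the rule did not use were also higher in these cells. Of the 41 members outside the cell rule 39 were at least 2-fold higher in the 52 strongly responding cells than in all other cells, 25 were at least 5-fold and 12 at least 10-fold higher, with a median ratio of 6.73. Over the 7487 genes at 10 CPM or more in either pool, without the 3 genes of the rule, 5.18% were at least 2-fold, 1.04% at least 5-fold and 0.467% at least 10-fold higher, and the median ratio was 0.975. A gene that is low in the other cells enters those 7487 only by being high in the strongly responding ones. Mx1, at no more than 2.69 CPM in any library, is such a gene. The 41 members were counted without a minimum. The ratio was 37.9 for Mx1 (24.5 to 57.1), 33.0 for Usp18 (26.4 to 40.8), 23.3 for Isg15 (20.8 to 26.1), 22.2 for Iigp1 (17.6 to 27.6) and 22.1 for Cmpk2 (17.5 to 27.7). At the other end stood Ifitm1 at 1.55 (1.33 to 1.80) and Ifitm2 at 1.13 (0.970 to 1.30), while Ifitm3 reached 3.14 (2.91 to 3.38). Ifi27l2a and Bst2, which differed between the libraries, were 2.49-fold (2.13 to 2.89) and 2.58-fold (2.22 to 2.98) higher. Outside the 3 genes of the rule, the ISRE letters stood in 3 of the 8 members with a promoter entry and a ratio of 10 or more, and in 13 of the 24 below 10.

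**Figure D2:**
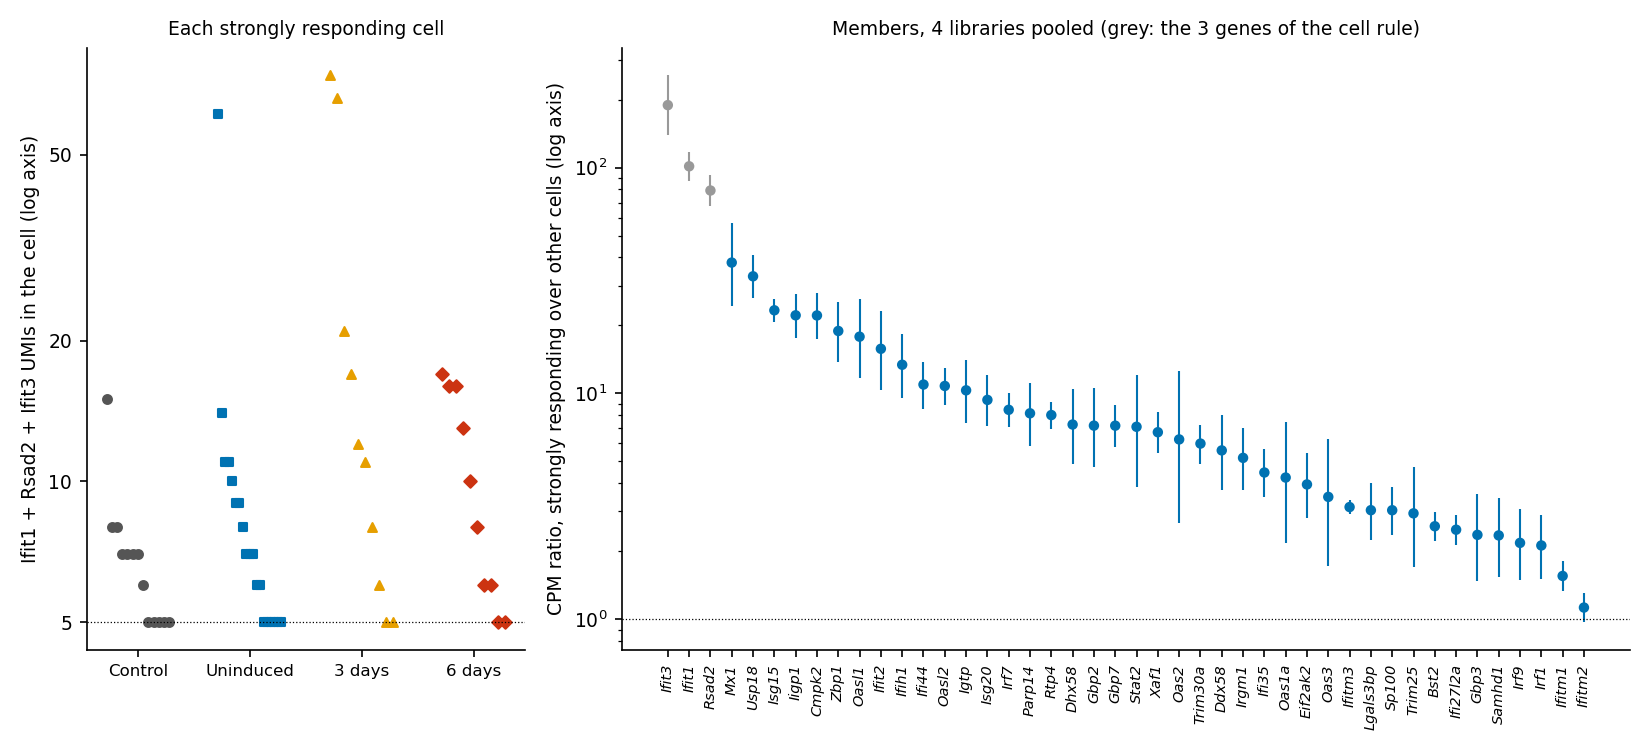
Left, UMIs of Ifit1, Rsad2 and Ifit3 summed in each strongly responding cell (1 point per cell, log axis), with a dotted line at the threshold of 5. Right, ratio of each member's CPM in the 52 strongly responding cells over all other cells, 4 libraries pooled, with 95% counting intervals on a log axis. The 2 highest 3-day cells, at 74 and 66 UMIs, and 1 uninduced cell at 61 stand above all others, and the ratios run from 1.13 for Ifitm2 to 37.9 for Mx1 outside the cell rule.

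The strongly responding cells had a median of 6330 UMIs, against 7355 in the other cells. Their summed LMPP markers stood at 1946 CPM against 1916 in the other cells, with Cd34 at 503 against 456 CPM and Flt3 at 189 against 206 CPM. Ly6a, which is on the LMPP marker list and is also known to be induced by interferon, stood at 261 against 78.5 CPM. Only 1 of the 52 lay in a cluster of another cell type, and that neutrophil-like cell held 2927 of their neutrophil marker UMIs. Summed neutrophil markers stood at 7089 CPM in the strongly responding cells against 2559 in the others, and at 86.7 against 46.4 CPM without clusters of other types. Monocyte and macrophage markers stood at 148 against 63.9 CPM, and at 119.9 against 44.6 CPM without those clusters. With all cells, most of that excess was Ms4a6c, at 107.7 against 30.01 CPM and seen in 23 of the 52. Ly6c2 was also higher, but its 11 UMIs lay in 1 cell, and F13a1, C1qa and C1qb were higher on 1 or 2 UMIs each. Csf1r (0 against 6.154 CPM), Ccr2, Cx3cr1, C1qc and Adgre1 were lower. The part of these markers in the member ratios was not tested. When the cells were clustered with the members left out, 59 cells led by Cxcl10, Ifit3b and Ifi204 formed a cluster, and it held 26 of the 52, which made up 44.1% of the cluster. The genes outside the list with the highest ratios were Ifit3b (193), the chemokine genes Cxcl10 (92.3) and Ccl5 (89.0), Ifi204 (46.5), Gm4951 (28.03), Serpina3f (22.8), Pydc4 (18.2), Serpina3g (12.9), Gm13822 (11.4) and Gm4955 (10.6).

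Each comparison was repeated with the strongly responding cells left out. Ifit1, Rsad2 and Ifit3 chose those cells, so their own values without them are set by that choice and are given as a description only. In 3-day over uninduced cells the log2 ratio was 0.69 with all cells and -0.02 without them for Ifit1, and 0.59 and 0.19 for Rsad2. Without the strongest cell of each library alone, an alternative chosen after the data were seen, the ratios were 0.67 and 0.28.

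Outside the rule's genes, 1 of 32 members in 3-day over uninduced cells moved by more than 0.1, namely Iigp1 from -0.19 to 0.003, and 25 moved by under 0.05. The higher calls of Usp18 and Gbp3 ended, from 0.29 to 0.22 and from 0.27 to 0.25. The 4 lower members (Irgm1, Ifitm1, Ddx58 and Trim30a) remained 1.2-fold lower. After thinning to 4700 UMIs, however, Ifitm1 stood at -0.24 and Trim30a at -0.13, inside 1.2-fold, as was Gbp3.

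In uninduced over control cells 3 of 31 members outside the rule moved by more than 0.1 (Isg15, Iigp1 and Igtp), and 23 moved by under 0.05. Of the 7 higher members outside the rule, Isg15, Irf7, Ifi27l2a, Rtp4 and Xaf1 remained 1.2-fold higher, and Isg20 and Iigp1 did not. All 3 lower ones remained (Irgm1, Trim25 and Igtp). The log2 ratio of Isg15 was 0.52 with all cells and 0.36 without them, that of Irf7 0.51 and 0.43, that of Ifi27l2a 0.48 and 0.49, and that of Irgm1 -0.51 and -0.53. The median over the 31 was 0.09 and 0.05, and the summed ratio of all 44 was 1.09 and 1.07 (1.06 to 1.09). Over the 39 members left without the 5 with the most UMIs it was 1.08 and 1.05 (1.02 to 1.07). Both sums include the 3 genes that chose the cells. After thinning, Isg15, Irf7 and Ifi27l2a were still 1.2-fold higher and all 3 lower members still lower, while Isg20, Iigp1, Xaf1 and Rtp4 were inside 1.2-fold. In 3-day over control cells Isg15 stood at 0.70 with all cells and 0.53 without the strongly responding ones. The summed ratio of those 39 members there was 1.09 and 1.04 (1.01 to 1.06).

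In 6-day against uninduced cells the 3 higher members (Ifi27l2a, Trim25 and Irgm1) and 5 of the 8 lower ones remained without the strongly responding cells. Iigp1 and Gbp2 moved from log2 ratios of -0.65 and -0.60 to -0.56 and -0.50, just inside 1.5-fold, and the summed ratio was 0.929 (0.917 to 0.942). After thinning, the call of Irgm1 ended, from 0.28 to 0.04, as did those of Irf7, Igtp, Rtp4 and Eif2ak2 among the lower members. Of the 31 members outside the rule, 1 moved by more than 0.1 without the strongly responding cells (Isg15, from -0.35 to -0.22) and 24 moved by under 0.05. In 6-day against control cells Ifi27l2a stood at 0.95 and 0.97.

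**Figure D3:**
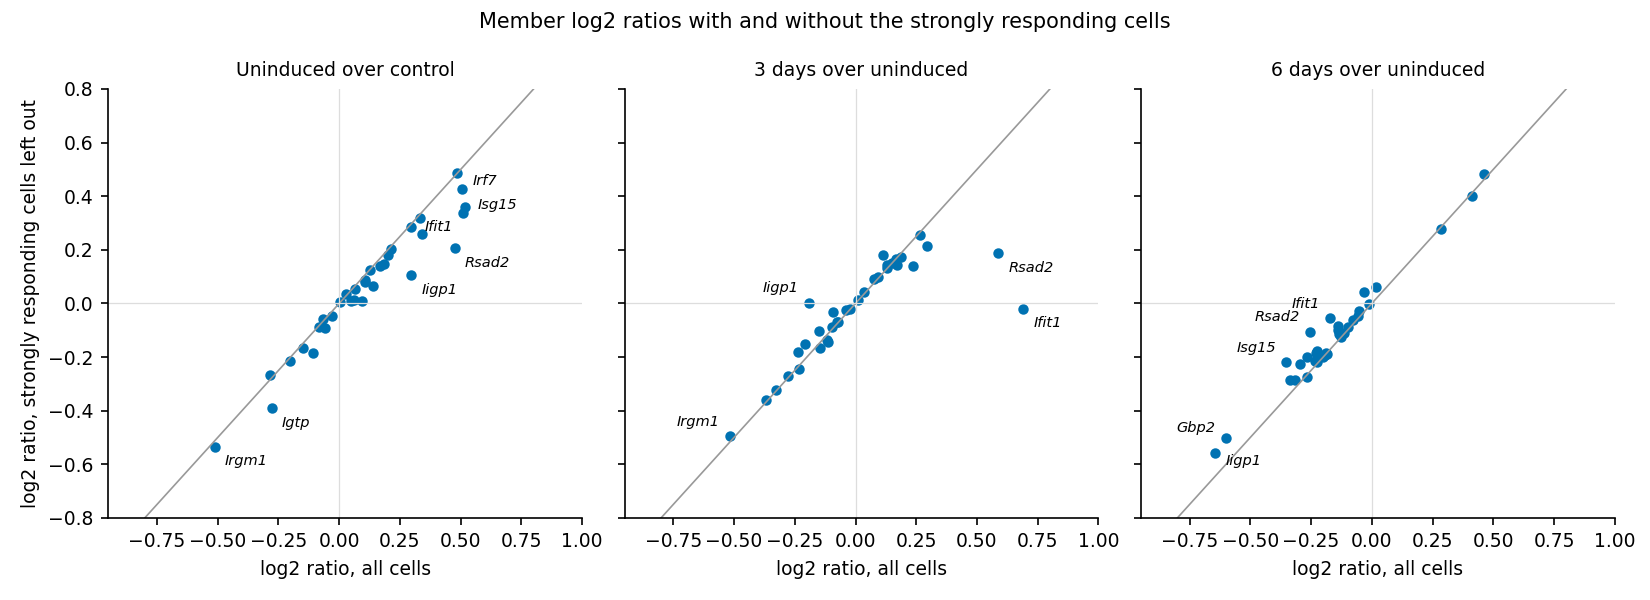
Log2 ratio of each member at 10 CPM or more with all cells (x axis) against the same without the strongly responding cells (y axis), for 3 comparisons, with the line of equal values. Most members lie near the line, such as Irgm1 at -0.51 and -0.53 in uninduced over control cells, while Isg15 there goes from 0.52 to 0.36. Ifit1 and Rsad2, which lie farthest from it at 3 days over uninduced, chose the cells left out.

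Counted per cell at 4700 UMIs, the middle of the distribution hardly differed and the upper tail did. The median cell held 10 member UMIs in control, uninduced and 3-day cells and 9 in 6-day cells, and the 10th percentiles were 4, 5, 5 and 4. Without the 5 members with the most UMIs the other 39 had a median of 3 and a 90th percentile of 7 or 8 in every library, but the 99th percentiles were 19.2, 20, 26.1 and 17.5. The highest cells held 43, 108, 80 and 32 UMIs of those 39, which include the 3 genes of the cell rule. With the strongly responding cells left out the highest held 43, 28, 65 and 32. This upper tail is thus not made of strongly responding cells alone. Medians of whole numbers this small cannot show a small shift in all cells.

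Ifi27l2a was spread over many cells. At 4700 UMIs it had at least 1 UMI in 31.6% of control (29.7 to 33.5), 37.9% of uninduced (35.9 to 40.1), 41.9% at 3 days (38.96 to 44.9) and 42.6% at 6 days (40.3 to 45.0), and unthinned in 42.0%, 45.4%, 51.9% and 53.7%. At least 3 UMIs were seen in 6.19%, 9.03%, 9.47% and 12.5% of thinned cells. In the 27 erythroid-like cells, at a median depth of 6733 UMIs, 3 had a UMI (11.1%, 2.35 to 29.2), against 47.5% of the 8724 progenitor cells at 7374. For Isg15 these shares were close, 18.5% (6.30 to 38.1) and 19.3%. They were 29.6% and 68.8% for Bst2, 55.6% and 94.6% for Ifitm3, and 0% and 22.1% for Irf7. The mean of Ifi27l2a per thinned cell was 0.568, 0.795, 0.829 and 1.04 UMIs, and 0.561, 0.778, 0.822 and 1.04 without the strongly responding cells. Irgm1, thinned, had a UMI in 10.7%, 8.22%, 5.33% and 8.15% of cells, and unthinned in 18.8%, 12.1%, 8.28% and 15%.

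**Figure D4:**
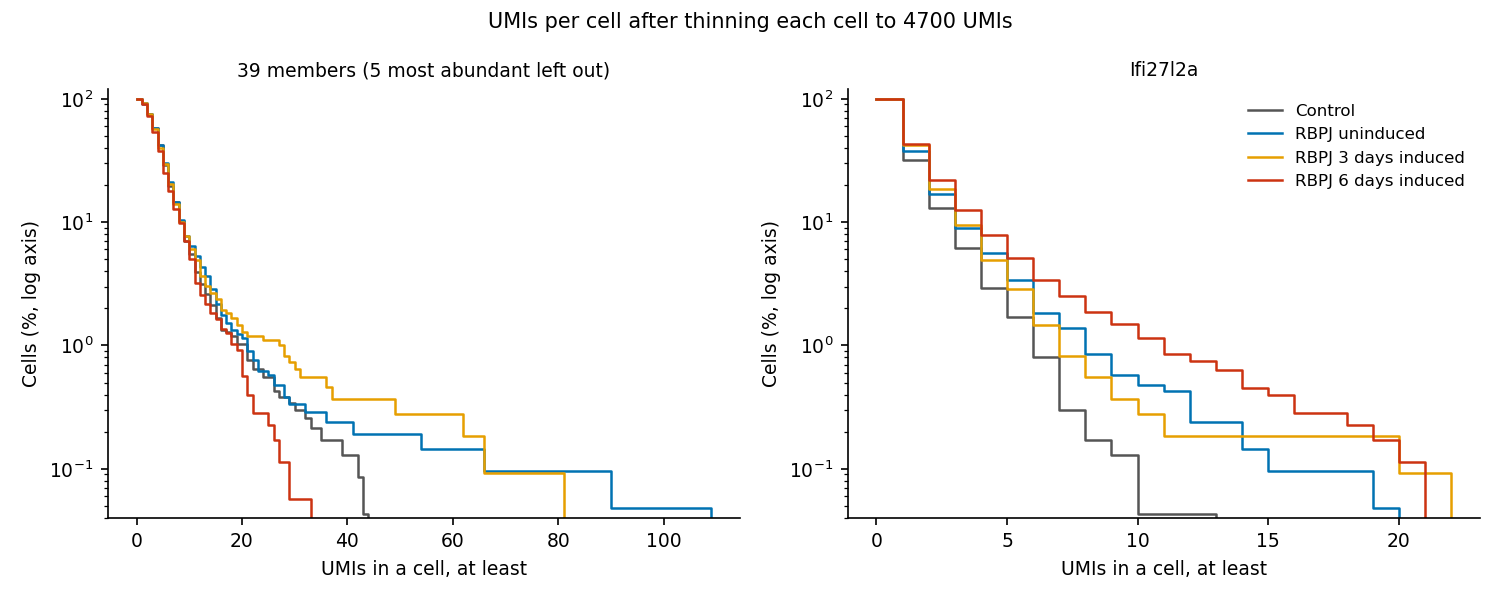
Share of cells (log axis) with at least the number of UMIs on the x axis after thinning each cell to 4700 UMIs, for 39 members summed (left) and for Ifi27l2a (right), 1 line per library. The lines of the summed members lie together at low UMI numbers and part in the upper tail, with maxima from 32 to 108 UMIs, while for Ifi27l2a 31.6% of control and 42.6% of 6-day cells hold at least 1 UMI.

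Member levels also differed among the clusters of progenitors. In control cells the summed members ran from 1650 CPM (1598 to 1703) in the cluster led by Ly6d to 3159 CPM in that led by Tcp11l2. Comparisons within clusters used those with at least 50 cells in both libraries. The summed members were higher in uninduced than in control cells in 11 of 12 clusters, with ratios from 0.993 to 1.33 and the highest in the cluster led by Ctsg, a granulocyte-monocyte gene (1665 CPM in control and 2217 in uninduced cells). In 6-day against uninduced cells they were lower in 9 of 11 clusters.

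Single members followed the whole-library differences to different degrees. Bst2 was higher in uninduced than in control cells in 12 of 12 clusters, and Irf7, Rtp4 and Ifi27l2a in 11 of 12. Irgm1 was lower in 12 of 12, and in 3-day against control cells in 9 of 9. Ifi27l2a was higher in 6-day than in control cells in 11 of 11 clusters, with ratios from 1.58 to 2.26, and higher than in uninduced cells in 11 of 11. Isg15, Irf7 and Rtp4 were lower in 6-day than in 3-day cells in 9 of 9 clusters. In uninduced against control cells Isg15 was higher in 9 and lower in 3 clusters, with ratios from 0.916 to 2.67. Ifitm1 there was higher in 5 and lower in 7, and Ifit1 was higher in 6 and lower in 6. Clusters of a library share their mice and their capture, so these counts are no replicates.

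**Figure D5:**
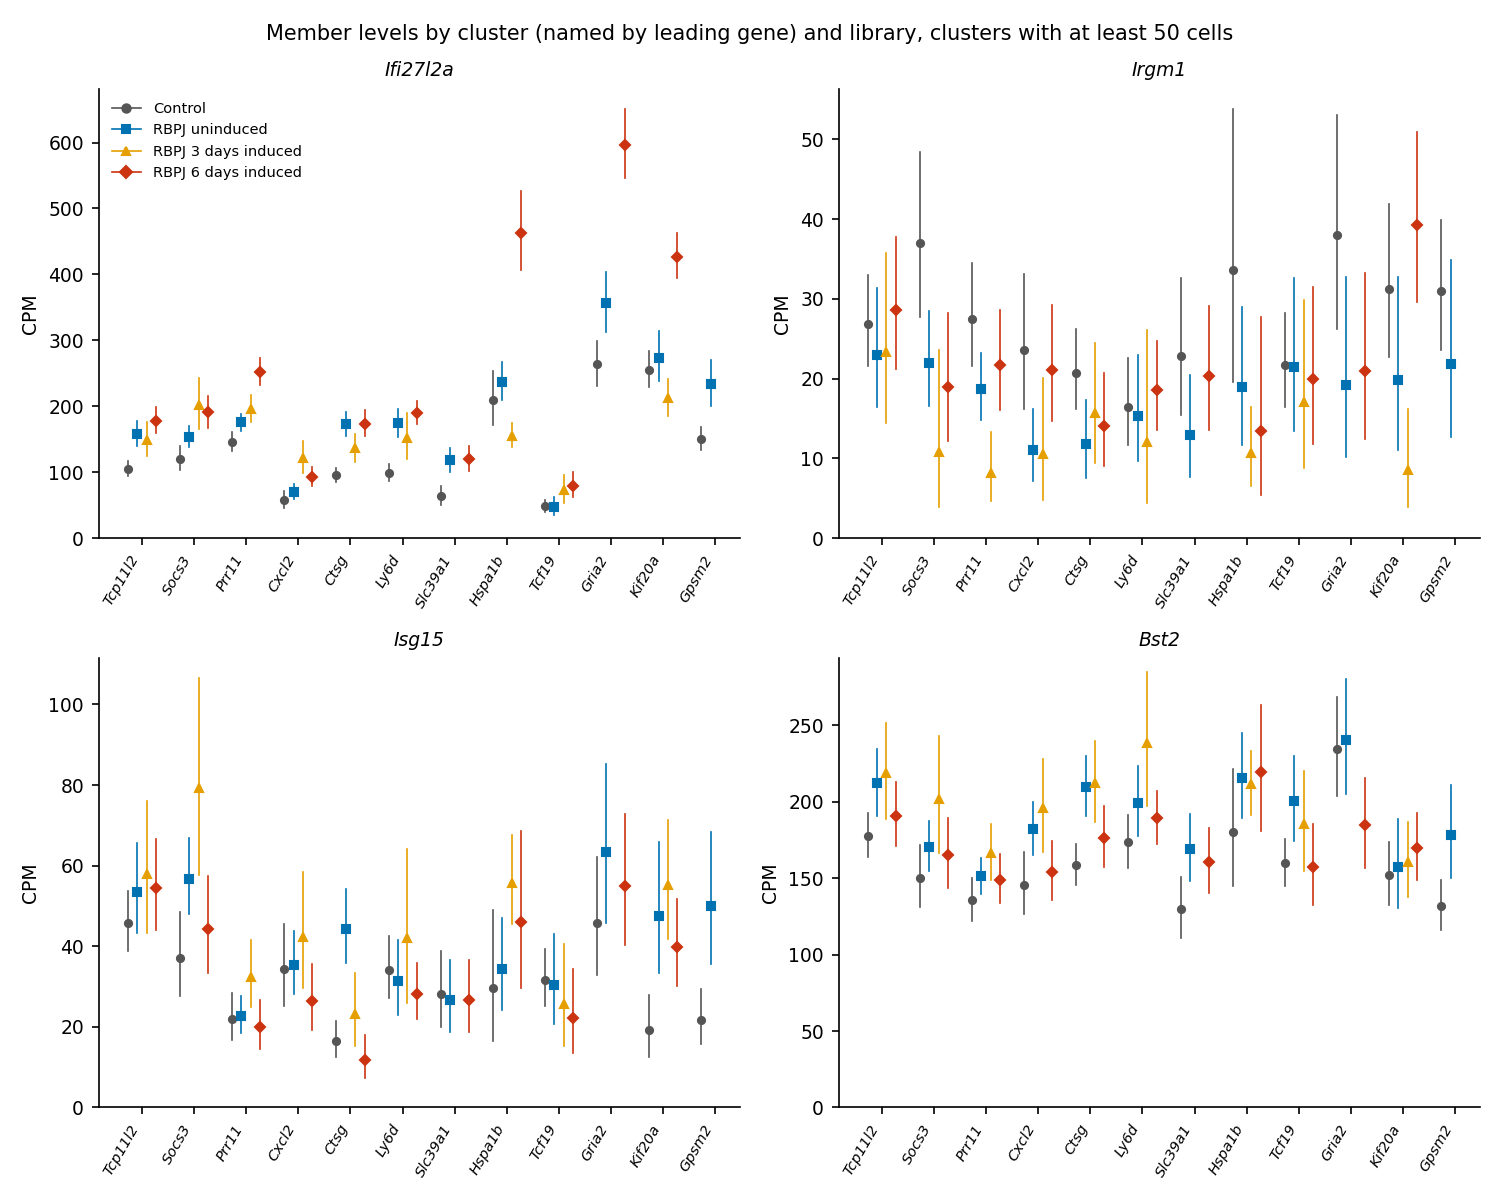
CPM of Ifi27l2a, Irgm1, Isg15 and Bst2 by cluster (x axis, named by leading gene) and library, with exact Poisson 95% intervals, for clusters with at least 50 cells in the library. Ifi27l2a in 6-day cells exceeds control in all 11 clusters compared, and Irgm1 in uninduced cells is below control in all 12.

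The rest of the pathway was read from 43 further genes, chosen by role. Those at 10 CPM or more numbered 22 in uninduced against control cells, where 1 was 1.2-fold higher and 3 were lower, beside 2.92% and 10.1% of all genes. In 3-day against uninduced cells 2 of 23 were higher and 3 lower (5.97% and 8.12% of all genes), and in 6-day against uninduced cells 0 and 2 of 22 (3.83% and 4.47%). Against control, 0 and 6 of 21 were higher and lower at 3 days (3.56% and 18.4%) and 1 and 5 of 21 at 6 days (1.91% and 10.4%). Between 6 and 3 days they were 1 and 2 of 22 (9.58% and 9.38%). Their medians were -0.10, -0.02, -0.02, -0.09, -0.09 and 0.01, beside -0.07, -0.007, -0.03, -0.08, -0.10 and -0.02 over all genes.

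The receptor genes were present. Ifnar2 stood at 85.2, 73.3, 80.0 and 83.3 CPM, and Ifnar1 at 23.0, 19.8, 18.8 and 21.9 CPM, 1.2-fold lower in 3-day than in control cells. Il10rb, a shared chain of the lambda interferon receptor, was 1.2-fold lower in uninduced (64.6 CPM) than in control cells (80.1 CPM), as were the adaptor kinase gene Tbk1 and the DNA sensor gene Mb21d1. Irf5, an activator of interferon genes, was the only pathway gene 1.5-fold higher in uninduced than in control cells, at 12.1 against 7.53 CPM (1.61-fold, 1.32 to 1.96). Stat3, which carries cytokine signals, stood at 36.7, 31.6, 28.1 and 29.0 CPM, the adaptor gene Myd88 at 16.4, 15.6, 15.7 and 13.1 CPM and Irf8, a myeloid and dendritic cell factor, at 120.2, 116, 99.7 and 114 CPM. Jak1 stayed between 65.5 and 68.8 CPM.

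Among the inhibitors Socs3, a feedback inhibitor of cytokine receptors, differed most, at 71.99, 63.6, 28.1 and 50.5 CPM. It stood at 0.442 of uninduced (0.388 to 0.501) in 3-day cells. The phosphatase gene Ptpn6 was 1.26-fold of uninduced (1.16 to 1.37) and Ptpn11 0.767 (0.663 to 0.885) in 3-day cells, and Ptpn2 in 6-day cells stood at 0.797 of 3-day cells (0.692 to 0.917). In the strongly responding cells Socs1, the inhibitor of JAK kinases, stood at 40.7 CPM against 8.39 in all other cells, while Jak1 stood at 64.6 against 66.9 CPM and Ifnar2 at 81.4 against 80.5 CPM.

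Interferon transcripts themselves were nearly absent from the data. All 7 UMIs of Ifnb1 and all 3 UMIs of Ifna2 in the 4 libraries came from 1 cell, the 3-day cell with 74 UMIs of the cell rule's genes. That cell had 12813 UMIs over 2956 genes, of which 187 were of members, with 50 of Rsad2, 23 of Ifit1, 24 of Isg15 and 1 of Irf7. It held 325 UMIs of Ccl5, 42.8% of those of its library, and 21 of Cxcl10. Of lineage markers it had 3 UMIs of Flt3, 3 of Cd34, 0 of Kit, 0 of Ly6a, 3 of Tcf4 and 0 of Siglech, the last 2 being plasmacytoid dendritic cell markers, and 8 of Rbpj. Summed by list it had 10 UMIs of LMPP, 7 of granulocyte-monocyte progenitor, 6 of conventional dendritic and 5 of plasmacytoid dendritic cell markers. It also had 4 of monocyte and macrophage, 2 of neutrophil, 2 of stem cell and 1 of NK cell markers, and none of the other lists. Ifng was seen at 1 to 5 UMIs in 14 cells, 0 of them strongly responding, and the other type I and lambda interferon genes on the list were at 0 apart from 1 UMI of Ifnk.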

How the data were processed

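Single LMPPs were sequenced in 4 droplet libraries, 1 per group. The deposited matrices hold UMI counts per gene and barcode, as made by the authors. Per the submitters' processing notes build mm10 and Seurat were used, with no role stated, and the counter is unnamed (not given in the sources used here). Values in the authors' log2 tables equal log2(count / size factor + 1) to within 8e-11 and were used only to choose the cells the authors kept. Doublets were not called and were kept. Counts were summed per library and scaled to the same total in each library (CPM). Exact Poisson intervals were given for levels, conditional exact intervals for ratios and Clopper-Pearson intervals for shares, all at 95%. A member was counted as higher or lower by size alone, at 10 CPM or more in either library and 1.5-fold or 1.2-fold on log2(CPM + 1), and no p-value was computed, with 1 library per group. All 44 members were named by role, members by size of log2 ratio in each comparison, pathway genes at 1.2-fold, and the 10 other genes with the highest ratio in strongly responding cells at 20 UMIs or more. Alternatives were edgeR 4.0.16 TMM scaling, DESeq2 1.42.0 size factors, other minimums, thinning to 4700 UMIs, and leaving out cells or genes. Thinning of single members and leaving out each library's strongest cell were chosen after seeing the data. Cells were clustered with scanpy 1.11.5 and Leiden (leidenalg 0.10.2), members left out, on 2000 variable genes and 30 components. The scripts were tested on simulated data. The members, gene lists and comparisons were chosen with earlier results of these data known. Values of 1 pathway gene are not reported here.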

Additional observations from a re-analysis of the deposited data

How the results depend on the processing

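No paired analysis was possible because every arm is a single library, and no replicate could be left out. The intervals of ratios between libraries cover counting error only, and differences between mice, sorts or captures are not in them. Members below 10 CPM entered no count of differences under the main minimum. The summed ratio of uninduced over control was 1.07 without the strongly responding cells, 1.05 after thinning, 1.15 with TMM scaling and 1.16 with DESeq2 size factors. That of 3-day over control was 1.03, 1.02, 1.11 and 1.12 under the same settings, and 1.09 without the 5 members with the most UMIs. That of 6-day over control was 0.969 after thinning, 1.06 with TMM scaling, 1.07 with DESeq2 size factors and 0.960 without those 5 members. Without those 5, 3-day over uninduced reversed to 1.005, 6-day over uninduced was 0.886 and 6-day over 3-day 0.881, and without the strongly responding cells the last 2 were 0.929 and 0.968. In the counts that follow, brackets give the genes called of all genes counted under the same setting. Members 1.5-fold higher in uninduced than control numbered 1 with TMM scaling (65 of 7169) and 1 with DESeq2 size factors (66 of 7155). They numbered 2 with a minimum of 2 CPM (111 of 10542) and 2 with none (162 of 16297). At 1.2-fold 5 were higher without the strongly responding cells (203 of 7240) and 5 after thinning (227 of 7240). There 1 was lower with TMM (368 of 7169) and 1 with DESeq2 (323 of 7155). For 3-day over uninduced, 0 were 1.5-fold (30 of 7080) and 0 were 1.2-fold higher (421 of 7080) without the strongly responding cells. After thinning, 1 was 1.5-fold higher (57 of 7073). For 6-day over uninduced, 0 were 1.5-fold (20 of 7087) and 4 were 1.2-fold lower (311 of 7087) without those cells. After thinning, 1 was 1.5-fold lower (33 of 7099). For 3-day over control, 0 were 1.5-fold (62 of 7261) and 6 were 1.2-fold higher (258 of 7261) without those cells. With DESeq2 size factors 5 were 1.5-fold higher (80 of 7185), and after thinning 2 were 1.5-fold lower (194 of 7254). At 1.2-fold 3 were lower with TMM (747 of 7199) and 3 with DESeq2 (649 of 7185). For 6-day over control, 1 was 1.5-fold lower without those cells (13 of 7243) and 1 after thinning (46 of 7255). At 1.2-fold 3 were higher with TMM (259 of 7182) and 3 with DESeq2 (294 of 7168). With a minimum of 2 CPM 4 were 1.2-fold higher (398 of 10573), as were 4 with none (862 of 16251). Members 1.2-fold lower numbered 2 with TMM (231 of 7182) and 1 with DESeq2 (199 of 7168). For 6-day over 3-day, 0 were 1.5-fold higher after thinning (154 of 7114) and 0 were 1.5-fold lower without those cells (45 of 7118). Those counts were taken over the members at 10 CPM or more within each setting, so they can be lower than counts over a constant set of members. The median log2 ratio of 3-day over uninduced reversed to 0.0092 after thinning, and that of 6-day over control to 0.0084 with DESeq2 size factors. Ifit1 in 3-day over uninduced reversed to -0.019 without the strongly responding cells, which were chosen on it. Those cells made up 1.15%, 1.41% and 1.27% of control, uninduced and 6-day cells at a threshold of 3 UMIs, 0.0371% and 0.181% of control and uninduced cells at 10 UMIs, and 0.214% of control cells after thinning. For shifts other than those from fewer cells or members, the cause was not tested. Of 408 ratios of single members under alternatives, those of Ifit1 and Rsad2 among them, 377 stayed inside the counting interval of the main ratio. That interval is wide for members with few UMIs, and a call can end within it. Ddx58 in 6-day over control, for instance, went from -0.27 to -0.05 after thinning and is among the 377.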
